A study of Mus musculus with 8 samples.

Results

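The renal stroma is the loose connective tissue that surrounds the branching ureteric epithelium and the forming nephrons, and 8 transcription factors associated with it were followed here in embryonic mouse kidneys. They were chosen by name (Foxd1, Tcf21, Meis1, Meis2, Hic1, Ebf1, Nr2f1 and Nr2f2) with earlier results of these data known. All 8 were found among the 23337 genes of the deposited table. RNA came from whole kidneys dissected at embryonic stage E13.5, counted in days, on a mixed C57BL/6 background. The 4 control samples were Smo(flox/+), which have 1 loxP-flanked Smo allele beside a wild type one. The 4 mutant samples were Foxd1Cre;Smo(flox/-), which express Cre recombinase in Foxd1-expressing cells and pair a floxed Smo allele with a null one. Smoothened, the product of Smo, relays hedgehog signals across the cell membrane, so the comparison asked what differs when the Foxd1 lineage loses it.

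Controls carried no Cre by their label, and every cell of a mutant had a null Smo allele, so a difference between groups is one between these full genotypes. Cells outside the Foxd1 lineage kept their floxed copy, and they are part of each sample. Values are reads per gene divided by 1 size factor per library, called normalised counts, from libraries of 10288191 to 13494079 reads in genes. Smo itself stood at 2241 ± 66.4 (SD, n = 4) in controls and 537 ± 20.01 in mutants, and every library matched its label. The labels number the samples 1 to 4 in each group and leave unstated whether each was a separate embryo, and p-values then reflect only sample-to-sample spread, which may be technical. In whole kidneys, fewer cells of a type and less RNA per cell cannot be told apart.

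Stromal progenitors of the kidney lie under the capsule around the nephron progenitors and are marked by Foxd1, a forkhead factor. Their descendants form the interstitium of cortex and medulla, pericytes, vascular smooth muscle and mesangium. The stroma also signals to its neighbours, and loss of Foxd1 or Tcf21 in mice is known to disturb nephron formation and ureteric branching. Meis1 and Meis2 are homeodomain factors of the TALE class that bind DNA with Pbx and Hox proteins. Hic1 is a zinc finger repressor found in many mesenchymal progenitors, Ebf1 is a helix-loop-helix factor best known from B cells and also present in stroma, and Nr2f1 and Nr2f2 are the orphan nuclear receptors COUP-TFI and COUP-TFII.

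Promoter sequence is shown for the pair of factors that fell in the mutants, Foxd1 and Hic1. The windows are the 250 bases before a RefSeq start site on GRCm38.p6, printed 5′ to 3′ on the strand of the gene, with CCAAT (either strand) and TATAA (strand of the gene) in capitals. The Foxd1 window is chr13:98353995-98354244 on the plus strand. The Hic1 windows are chr11:75170256-75170505 and chr11:75168153-75168402 on the minus strand, since RefSeq lists several starts, and the second of them lies in an intron of the longer GENCODE transcript.
Foxd1: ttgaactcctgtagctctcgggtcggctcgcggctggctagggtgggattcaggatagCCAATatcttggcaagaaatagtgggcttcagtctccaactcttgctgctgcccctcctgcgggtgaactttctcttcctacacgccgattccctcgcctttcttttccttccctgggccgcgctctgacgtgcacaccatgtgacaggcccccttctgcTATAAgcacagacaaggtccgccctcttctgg
Hic1, upstream start: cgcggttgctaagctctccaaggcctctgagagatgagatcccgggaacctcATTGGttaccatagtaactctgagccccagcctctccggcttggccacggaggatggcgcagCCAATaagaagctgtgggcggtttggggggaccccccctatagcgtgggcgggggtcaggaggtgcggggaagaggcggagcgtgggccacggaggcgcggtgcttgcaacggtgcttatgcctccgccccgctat
Hic1, downstream start: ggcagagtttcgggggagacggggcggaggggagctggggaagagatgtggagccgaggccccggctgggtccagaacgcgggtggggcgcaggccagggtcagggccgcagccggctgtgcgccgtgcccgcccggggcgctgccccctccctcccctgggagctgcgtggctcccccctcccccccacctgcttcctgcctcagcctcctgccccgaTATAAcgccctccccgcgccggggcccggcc

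In the Foxd1 window TATAA began 32 bases before the start, and in the downstream Hic1 window it began 31 bases before it. TATAA was in 5255 of all 32851 promoter windows of this length, and CCAAT on either strand was in 33.8%. The binding consensus of the Gli factors, GACCACCCA, was searched on both strands because Gli proteins carry the hedgehog signal to DNA. It was in none of the 11 windows of the 8 members and in 0.225% of all windows, and the form GACCNCCCA, which includes the first, was in none of the 11 and in 0.868% of all. These letters are thus absent from these windows, which says nothing of sites elsewhere.

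Of the 8 factors, 2 fell in the mutants, Foxd1 and Hic1, and none rose. Over all 13692 genes with a mean normalised count of at least 10, 0.570% were called in either direction and 0.446% were called lower (61 lower and 17 higher). An unadjusted p under 0.05 was reached by 3 of the 8 members, the third being Nr2f1, and by 8.70% of all tested genes. The 8 and the lists of related genes were chosen with earlier results of these data known. Counts beside these shares are therefore a description only. The median log2 fold change of the 8 was -0.05, against 0.0037 over all tested genes. Every fold change is the mutant level relative to the control level, as a log2 difference of normalised count + 1, and calls are at an adjusted p under 0.05 by limma with Benjamini-Hochberg adjustment over all tested genes. The groups did not overlap for Foxd1 and Hic1 and overlapped for the other 6, while 5.31% of all tested genes had groups without overlap in either direction.

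**Figure D1:**
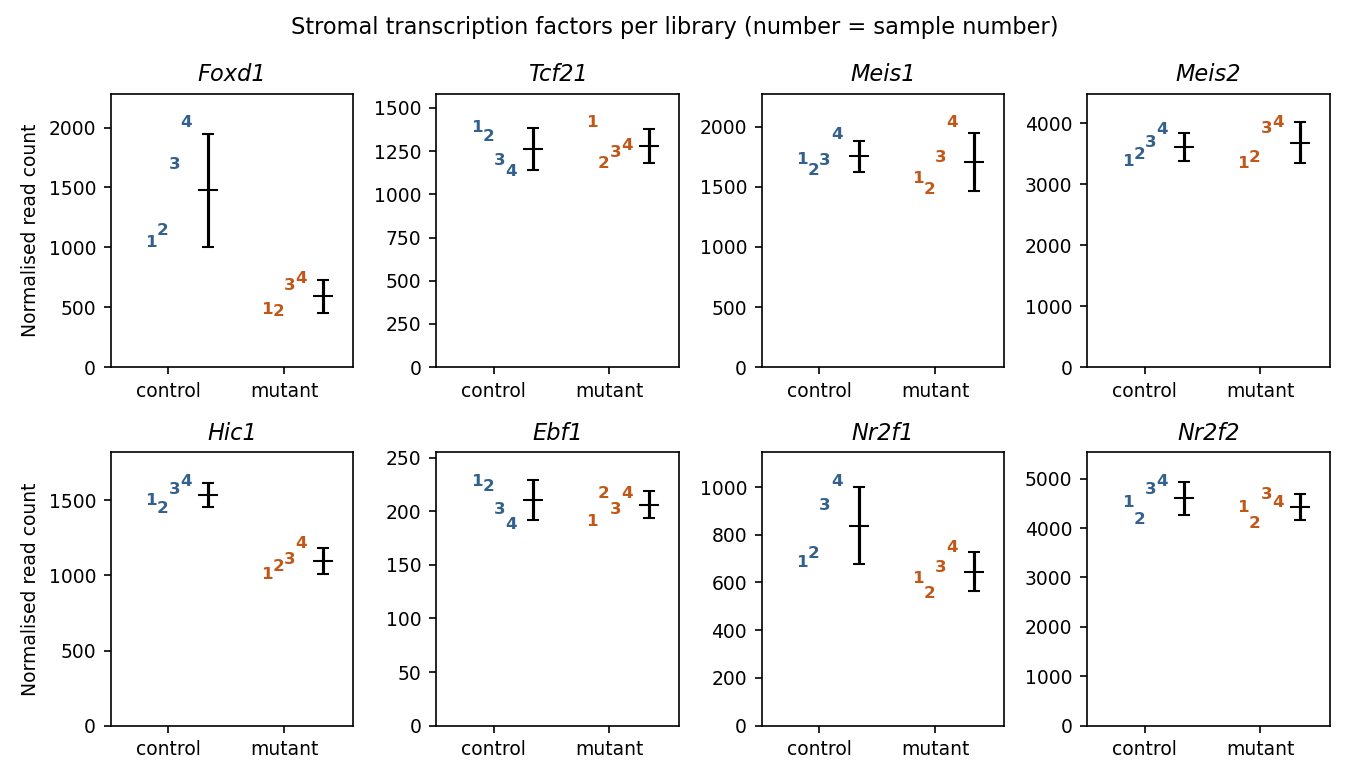
Normalised read count of each factor in each library, with the sample number as the plotting symbol, controls in blue and mutants in orange, and the mean ± SD of 4 libraries beside them (vertical axes start at 0). For Foxd1 and Hic1 every mutant point lies below every control point, and the other 6 overlap between groups.

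Foxd1, the gene that marks the stromal progenitors, lies on chromosome 13 from 98354242 to 98359305 of GRCm38 as a single exon. Its normalised count was 1038, 1138, 1693.5 and 2039 in controls 1 to 4 and 484, 469, 682 and 738 in mutants 1 to 4. The highest mutant lay below the lowest control, and in each group the libraries numbered 1 and 2 were lower than those numbered 3 and 4. The means were 1477 ± 473 and 593 ± 137, so the mutants held 40.2% of the control level. The log2 fold change was -1.29 (SE 0.212, adjusted p = 0.0251), with a 95% interval from -1.75 to -0.82, not adjusted for the number of genes. An exact two-sided permutation test over the 8 libraries gave p = 0.0286, the smallest that 70 arrangements allow.

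The call of Foxd1 depended on single libraries, and its direction did not change with any of the 8 left out. Its adjusted p by limma was 0.112 without control 3, 0.0984 without mutant 1, 0.0894 without mutant 2 and 0.0719 without mutant 3. In a common Foxd1Cre allele the Cre sequence is inserted into Foxd1 and disrupts it. Which allele was used is not in the labels, and for Foxd1 the Cre allele and the loss of Smo cannot be told apart.

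Hic1, the zinc finger repressor, lies on chromosome 11 from 75164565 to 75169519. Its normalised count was 1496, 1445, 1572 and 1626.5 in controls 1 to 4 and 1005.5, 1058.5, 1107 and 1209 in mutants 1 to 4. The groups were well apart, with a gap between the lowest control and the highest mutant that exceeded the range within either group. Means were 1535 ± 80.3 in controls and 1095 ± 86.7 in mutants, or 71.3% of the control level. The log2 fold change was -0.49 (SE 0.058, adjusted p = 0.0064), with a 95% interval from -0.62 to -0.36. Hic1 passed whichever single library was left out, with adjusted p from 0.0021 to 0.0322 by limma. With both libraries numbered 2 left out, which held the most skeletal muscle RNA, neither Hic1 (adjusted p = 0.0673) nor Foxd1 (adjusted p = 0.124) passed, and only 2 genes of the whole table did.

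**Figure D2:**
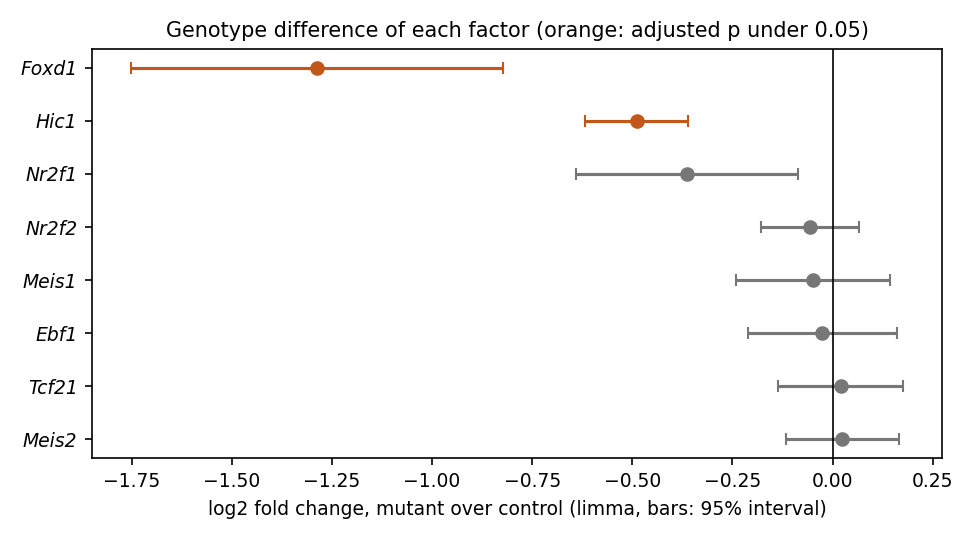
Log2 fold change of mutant over control for each factor with its 95% interval from limma, in orange where the adjusted p over all tested genes was under 0.05. Foxd1 (-1.29) and Hic1 (-0.49) passed, and the intervals of Tcf21, Meis1, Meis2, Ebf1 and Nr2f2 include 0.

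The nuclear receptor genes Nr2f1 and Nr2f2 differed in how far their groups lay apart. Nr2f1, on chromosome 13 from 78188973 to 78199757, had normalised counts of 685, 721, 921 and 1024 in controls 1 to 4. Its mutants 1 to 4 stood at 616, 556, 662 and 747.5. Only mutant 4 reached into the control range, above controls 1 and 2. Means were 838 ± 162 and 645 ± 80.8, with a log2 fold change of -0.36 (SE 0.126), and Nr2f1 did not pass over all genes (adjusted p = 0.359, with an unadjusted p of 0.0146, both by limma). Its exact permutation p was 0.114, two-sided. Whether Nr2f1 passed depended on the model, as described below under the dependence on processing. Nr2f1 lies 20.2 Mb from Foxd1 on the same chromosome.

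Nr2f2, on chromosome 7 from 70351944 to 70366735, stood at 4512, 4183.5, 4789 and 4947 in controls 1 to 4. In mutants 1 to 4 it stood at 4413, 4085, 4690.1 and 4516. The ranges overlapped for most of their length, with means of 4608 ± 335 and 4426 ± 254. Its log2 fold change was -0.06 (adjusted p = 0.855 by limma), and the 95% interval allows 88.3% to 105% of the control level. Nr2f2 also marks venous endothelium, and the summed counts of the 10 endothelial markers listed were 6257 to 7235 in controls and 5356 to 6870 in mutants, with none of the 10 called by limma.

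Sequence likeness of the paralogues bears on how reads are assigned. Coding sequences of Nr2f1 and Nr2f2 were identical at 83.6% of 1224 aligned bases, and their most alike 90 bases are printed because reads are most easily confused there. They run from coding base 232 to 321 in Nr2f1 and from 220 to 309 in Nr2f2, and capitals mark the 4 bases that differ.
Nr2f1: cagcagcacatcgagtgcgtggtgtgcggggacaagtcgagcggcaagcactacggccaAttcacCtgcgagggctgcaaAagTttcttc
Nr2f2: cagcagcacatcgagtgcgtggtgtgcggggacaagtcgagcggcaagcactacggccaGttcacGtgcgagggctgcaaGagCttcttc

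Of all 50-base words in the GENCODE transcripts of Nr2f1, 0.196% also occur in those of Nr2f2, which is 10 of 5090. Meis1 and Meis2 shared none of 10853 and 12126 such words and were identical at 76.6% of 1395 aligned coding bases. Read length was not known here, and words of other lengths were not compared. The most alike 90 coding bases of Meis1 and Meis2, shown for comparison, differ at 11 positions, in capitals.
Meis1: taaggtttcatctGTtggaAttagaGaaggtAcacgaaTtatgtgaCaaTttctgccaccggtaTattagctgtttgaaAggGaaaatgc
Meis2: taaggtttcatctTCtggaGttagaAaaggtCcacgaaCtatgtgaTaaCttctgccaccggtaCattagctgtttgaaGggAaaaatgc

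Meis1, on chromosome 11 from 18879817 to 19018985, had normalised counts of 1729, 1633, 1718 and 1939 in controls 1 to 4. Mutants 1 to 4 stood at 1574, 1475, 1743 and 2033. The mutants spanned the whole control range, and library 4 was the highest in both groups. The log2 fold change of Meis1 was -0.05 (adjusted p = 0.935 by limma), and the 95% interval allows 84.6% to 111% of the control level. Meis2, on chromosome 2 from 115863064 to 116065839, was at 3367, 3485, 3684 and 3896 in controls and 3337, 3440, 3920.5 and 4006 in mutants 1 to 4. The ranges were nearly the same, with a log2 fold change of 0.02 (adjusted p = 0.954 by limma) and a 95% interval of 92.2% to 112%.

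Tcf21, a basic helix-loop-helix factor of stroma and podocytes, lies on chromosome 10 from 22817281 to 22820174. It stood at 1388, 1337, 1198 and 1130.1 in controls 1 to 4 and at 1414, 1178, 1244.5 and 1282 in mutants 1 to 4. The ranges overlapped, and among controls the libraries with most Foxd1 had least Tcf21. Among mutants that order was not seen, and mutant 2 was lowest for both genes. Means of Tcf21 were 1263 ± 120 and 1280 ± 99.5. Its log2 fold change was 0.02 (adjusted p = 0.968 by limma), with a 95% interval of 91.0% to 113% of the control level. Podocytes are another source of Tcf21. Their 9 listed markers summed to 12091 to 13434 in controls and 10452 to 12161 in mutants with no called gene among the 7 tested. Most of this sum came from 1 gene, Cdkn1c (9214 ± 684 and 7722 ± 730.4), which is also in the list of medullary stroma. The defining marker Nphs1 was at a mean of 9.0 in controls and 4.3 in mutants, with the lowest library of each group at 0. The part of podocytes in the level of Tcf21 was not tested.

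Ebf1, on chromosome 11 from 44617317 to 45008091, was the least abundant of the 8. Its normalised count was 228, 223, 201.5 and 188 in controls 1 to 4 and 190.03, 216, 202 and 217 in mutants 1 to 4. The ranges overlapped almost wholly, with a log2 fold change of -0.03 (adjusted p = 0.966 by limma) and a 95% interval of 86.4% to 112% of the control level. For Meis2, Tcf21 and Ebf1 the sign of so small a difference changed when certain single libraries were left out, and for Meis1 likewise.

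Levels were compared between genes only per kilobase of merged GENCODE exons. In controls Tcf21 (538 ± 50.9 normalised reads per kb) and Nr2f2 (534 ± 38.9) were highest, and their ranges overlapped. Hic1 followed at 409 ± 21.4, then Meis2 (299.6 ± 19.3) and Foxd1 (292 ± 93.4), of which Foxd1 alone also reached into the range of Hic1. Meis1 (167 ± 12.3) and Nr2f1 (164 ± 31.8) overlapped each other, and Ebf1 was lowest at 21.5 ± 1.9. In mutants Foxd1 stood at 117 ± 27.04 per kb, in the range of Nr2f1 (127 ± 15.9), and Hic1 stood at 292 ± 23.1, in the range of Meis2 (305 ± 27.9). The order depends on the length used. Per kb of the longest transcript, the control level of Nr2f2 was 1091 and that of Tcf21 707, and Meis2 (656) stood above Hic1 (439).

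**Figure D3:**
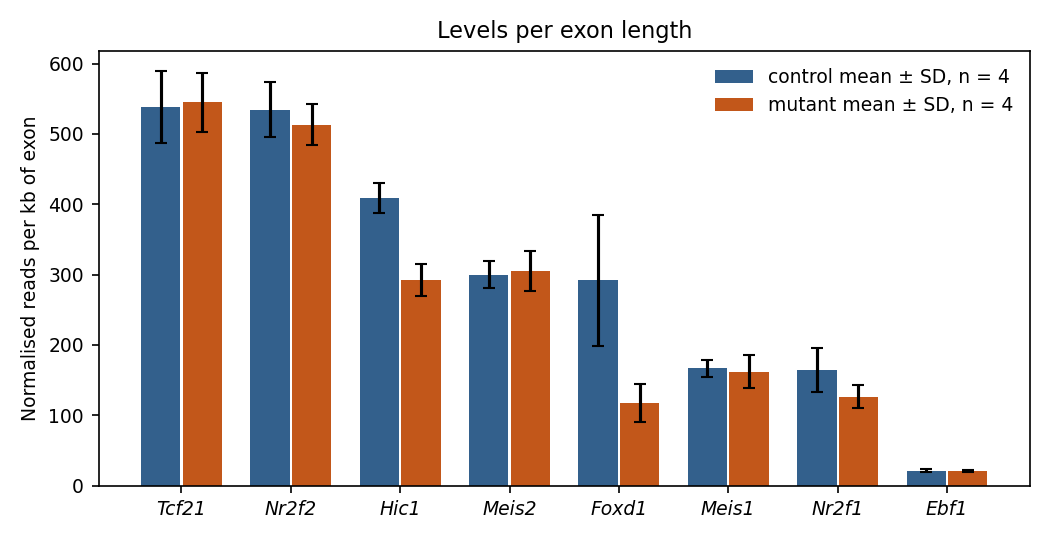
Normalised reads per kilobase of merged exon for the 8 factors, as bars of the mean with SD of 4 control (blue) and 4 mutant (orange) libraries. Foxd1 goes from 292 to 117 and Hic1 from 409 to 292, while the other bars of a pair lie close together apart from Nr2f1.

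The balance between factors was tested within libraries. Foxd1 relative to the mean of the other 7, as a difference of log2 values, was 0.04 ± 0.41 in controls and -1.12 ± 0.24 in mutants (SD, n = 4). The difference between the groups was -1.15, the groups did not overlap, and the exact two-sided permutation p was 0.0286, the smallest possible, or 0.0857 after Benjamini-Hochberg adjustment over the 3 balances tested. This balance largely repeats the Foxd1 values given above and is no separate support for them. The other 7 also include Hic1, which was itself called lower. For Nr2f1 relative to Nr2f2 the difference was -0.31, from -2.48 ± 0.19 to -2.78 ± 0.13 (exact permutation p = 0.0571, adjusted 0.0857). For Meis1 relative to Meis2 it was -0.07 (exact permutation p = 0.286, adjusted 0.286). None of the 3 passed after adjustment, which this design could not have given for a single balance.

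Variation between libraries of a group was compared over all 28 pairs of the 8 factors, after the mean of its group was subtracted from each log2 value. Of the 28 pairs, 16 had a positive Pearson correlation over the 8 libraries, 12 had an unadjusted Pearson p under 0.05 by the exact permutation test, and 1 passed after adjustment (0 by Spearman). The share of such pairs among all genes was not computed, so these counts cannot be read as particular to the 8 factors. The positive pairs were the 15 without Tcf21 and Ebf1, with r from 0.640 for Hic1 and Nr2f2 to 0.972, and the pair of Tcf21 with Ebf1 (r = 0.354), a split described after the values were seen. The closest pair was Foxd1 and Nr2f1. For them r was 0.972 by Pearson and 0.976 by Spearman, with exact permutation p of 0.0017 and 0.0035 when libraries were permuted within groups, where 0.0017 is the smallest that 576 arrangements allow. After Benjamini-Hochberg adjustment over all 28 pairs of members the values were 0.0486 and 0.0972, so the pair passed by Pearson alone. Without the 2 libraries farthest from the median of Foxd1, r was 0.946. The permutation shuffled controls and mutants separately. Over all tested genes, deviations of same-numbered libraries correlated at 0.325, 0.287, 0.294 and 0.0635 for numbers 1 to 4. No p-value of a pair allows for that link.

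Deviations of Tcf21 and Ebf1 correlated with those of Foxd1 at r = -0.660 and -0.560, with exact permutation p of 0.132 and 0.219 (adjusted 0.217 and 0.278). The spread between libraries was widest for Foxd1, with a coefficient of variation of 32.01% in controls and 23.1% in mutants. Nr2f1 followed in controls (19.3%) and Meis1 in mutants (14.3%), and in controls the other 6 lay between 5.23% and 9.47%.

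**Figure D4:**
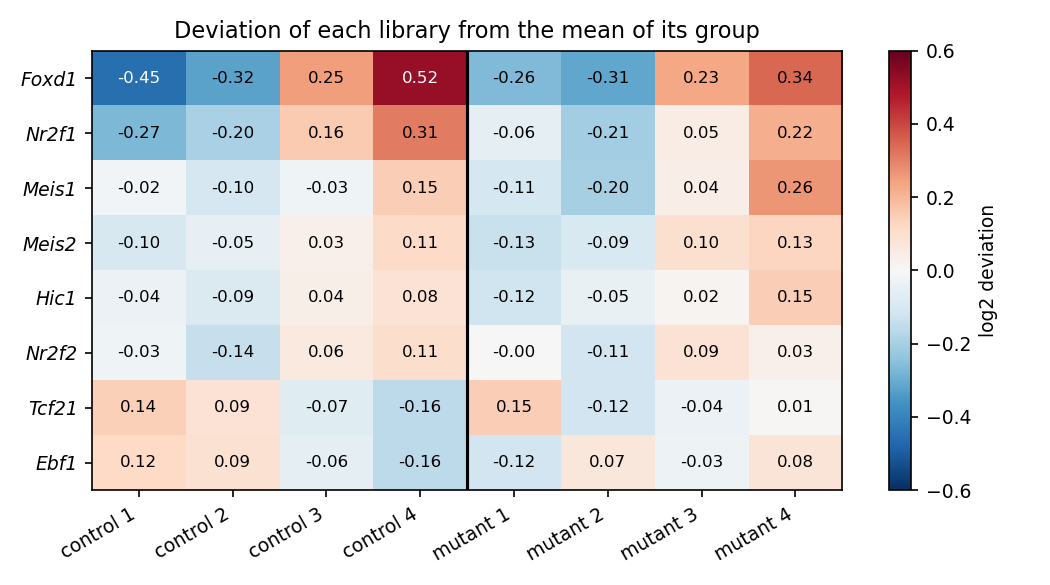
Deviation of each library from the mean of its group in log2 units, for the 8 factors (rows) in the 4 control and 4 mutant libraries (columns), with red above and blue below the mean. Foxd1 ranges from -0.45 in control 1 to 0.52 in control 4, and Nr2f1, Nr2f2, Meis2 and Hic1 have the sign of Foxd1 in every library, while Meis1 differs from it in control 3 (-0.03).

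Other tissue content also differed between libraries. The summed count of the 12 skeletal muscle markers was 4533 in control 2 and 3041 in mutant 2 and 772 to 1305 in the other 6 libraries. The summed count of the 10 general stroma markers, among them Pdgfra, Pdgfrb and collagens, was highest in control 2 (49545) and control 1 (44690) and lowest in control 4 (30469), where Foxd1 was highest. In mutants it was 31421 to 37170. With the skeletal muscle level as a covariate, the log2 fold changes of Foxd1 (-1.39, adjusted p = 0.0032) and Hic1 (-0.51, adjusted p = 0.0032) passed by limma. The part of tissue content in the correlations between factors was not tested.

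The genes whose deviations were most like those of a factor were sought among the 10300 genes whose mean reached 100. They are a description, since the highest of so many correlations over 8 libraries is always high. For Foxd1 they were Ncrna00085 (r = 0.996) and Golm1 (r = 0.995), a Golgi membrane protein gene. For Hic1 they were Cdh11 (r = 0.990), a cadherin of mesenchymal cells, and Crabp2 (r = 0.976), a retinoic acid binding protein gene. For Nr2f1 they were Fzd7 (r = 0.992), a Wnt receptor gene, and Lin28b (r = 0.990), an RNA-binding protein gene. None of these 6 was called between genotypes, with log2 fold changes from -0.15 to 0.03.

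Paralogues of the 8 were then examined, 10 of 13 of which were tested. None was called by limma. An unadjusted p under 0.05 by limma was reached by 4 of the 10, against 8.70% of all tested genes. The alternative test edgeR called none and DESeq2 1, where DESeq2 called 214 genes in all. The median log2 fold change was -0.08. The 4 with the smallest p were 3 relatives of Ebf1 and Msc, a relative of Tcf21. Ebf3 stood at 646, 963, 929 and 1023 in controls 1 to 4 and at 440, 561, 569 and 787 in mutants 1 to 4 (log2 fold change -0.60, adjusted p = 0.204 by limma). Only mutant 4 lay above the lowest control. Ebf2 was at 172 ± 52.6 and 93.8 ± 32.5 (log2 fold change -0.89, adjusted p = 0.210 by limma), and Ebf4 at 110.1 ± 11.6 and 139.7 ± 10.98 (log2 fold change 0.34, adjusted p = 0.271 by limma), with no overlap for either. Likewise without overlap, Msc was at 23.5 ± 2.3 and 14.5 ± 4.5 (log2 fold change -0.70, adjusted p = 0.389 by limma). Meis3, Hic2, Foxd2, Tcf15, Tcf23 and Nr2f6 had log2 fold changes from -0.45 to 0.11.

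Binding partners and co-regulators were all measured, 25 of 25, and none was called by limma. An unadjusted p under 0.05 by limma was reached by 6 of the 25, against 8.70% of all tested genes. By edgeR none was called and by DESeq2 2. The median log2 fold change was 0.0041. Zfpm2, whose protein FOG2 binds Nr2f2, was at 281 ± 23.6 in controls and 214 ± 23.5 in mutants (log2 fold change -0.40, adjusted p = 0.111 by limma). Its groups did not overlap. Pbx3 (log2 fold change 0.21, adjusted p = 0.284) and Tgif1 (log2 fold change 0.14, adjusted p = 0.305) did not pass by limma.

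In the list of other mesenchymal and stromal transcription factors, 1 of 20 tested genes fell and none rose. Nfib, a nuclear factor I gene, stood at 2225, 2449.9, 2099 and 2332 in controls 1 to 4 and at 1540.3, 1631.5, 1522 and 1975 in mutants 1 to 4, without overlap. Its log2 fold change was -0.45 (adjusted p = 0.0309 by limma), and the call was lost in 6 of the 8 fits that left out 1 library, all but those without control 4 and mutant 4, with adjusted p up to 0.117. Twist2 (log2 fold change -0.85, adjusted p = 0.168), Twist1 (-0.43, adjusted p = 0.210) and Prrx1 (-0.38, adjusted p = 0.377), which are factors of mesenchymal cells, did not pass by limma. The median log2 fold change of the list was -0.10, and 15 of the 20 had negative values, where 6588 of 13692 tested genes did. An unadjusted p under 0.05 by limma was reached by 8 of the 20, against 8.70% of all tested genes.

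Stromal genes that are not transcription factors were read beside the 8. Of 8 other cortical stroma genes, 1 fell, Smoc2, a matrix-associated protein gene (975 ± 230 and 441 ± 121, log2 fold change -1.15, adjusted p = 0.0325 by limma). Its call was lost in 5 of the 8 fits that left out 1 library, those without control 1, 2 or 3 or without mutant 1 or 3, with adjusted p up to 0.130. Ntn1 (log2 fold change -0.82, adjusted p = 0.0680), Sfrp1 (-0.39, adjusted p = 0.0876) and Aldh1a2 (-0.24, adjusted p = 0.123) did not pass by limma. The median of these 8 was -0.38, and their summed counts were 19106 to 21113 in controls and 12761 to 17526 in mutants. An unadjusted p under 0.05 by limma was reached by 5 of the 8, against 8.70% of all tested genes. Of 7 medullary stroma genes none was called by limma (1 with an unadjusted p under 0.05, none by edgeR and 1 by DESeq2), with a median of -0.10. Of 10 general stroma genes none was called by limma (3 with an unadjusted p under 0.05, none by edgeR or DESeq2), with a median of -0.15 and with Pdgfra at 2955 ± 369 and 2473 ± 218 (log2 fold change -0.25, adjusted p = 0.355 by limma).

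Markers of other kidney cell types were read beside these lists, and they differed in both directions. The summed counts of the 12 nephron progenitor markers were 10158 to 11598 in controls and 12667 to 13424 in mutants, without overlap, and those of the 12 ureteric bud markers were 10224 to 12367 and 11244 to 14066. By limma 2 nephron progenitor genes rose, named here because they were called, Spock2 (log2 fold change 0.38, adjusted p = 0.0064) and Itga8 (log2 fold change 0.31, adjusted p = 0.0126), and 1 ureteric bud gene, Gfra1 (log2 fold change 0.31, adjusted p = 0.0424). Spock2 passed with any 1 library left out. Itga8 did not pass without mutant 2 or mutant 3 (adjusted p = 0.0516 and 0.0573 by limma), and Gfra1 did not pass in 6 of the 8 fits, all but those without control 4 and mutant 4 (adjusted p up to 0.156 by limma). Without both libraries numbered 2 none of the 3 passed. The median log2 fold changes of the nephron progenitor and ureteric bud lists were 0.27 and 0.23, with none called lower and 10 of the 12 members of each list above 0. An unadjusted p under 0.05 by limma was reached by 6 and 8 of them, against 8.70% of all tested genes. Other lists lay lower. Negative values were found for 7 of 7 tested smooth muscle, pericyte and renin cell genes (median -0.31). The same held for 11 of 11 macrophage genes (median -0.43) and 8 of 10 endothelial genes (median -0.10), with none of these 3 lists holding a called gene. The part of these cell types in the stromal values was not tested.

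**Figure D5:**
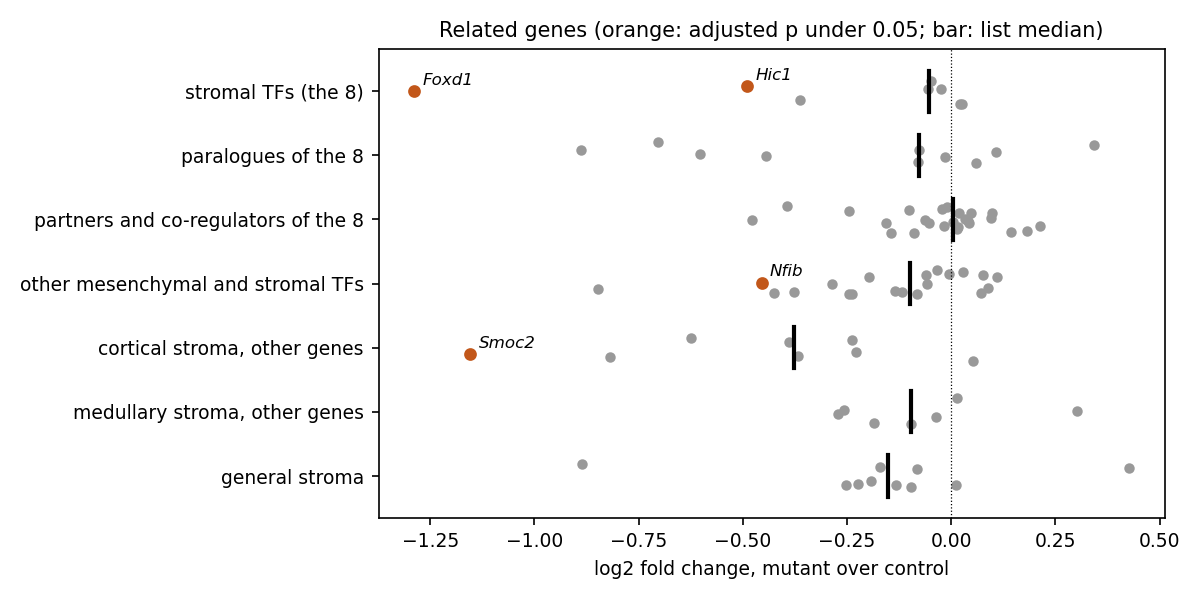
Log2 fold change of mutant over control for every tested gene of the 8 factors, of their paralogues and partners and of the stromal lists (rows, spread vertically for legibility), in orange where the adjusted p was under 0.05, with the list median as a black bar. The 4 orange points are Foxd1, Hic1, Nfib and Smoc2, and the medians lie between -0.38 and 0.0041.

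Counting without strand could mix reads of genes whose exons overlap. In GENCODE vM21 no other gene overlapped exons of Foxd1, Hic1, Tcf21, Meis2 or Ebf1. Exons of Nr2f1 shared 123 bases (2.42%) with the antisense gene A830082K12Rik, and those of Nr2f2 shared 643 bases (7.46%) with B130024G19Rik on the opposite strand. The mean normalised counts of A830082K12Rik and B130024G19Rik themselves were 75.8 and 132. Exons of Meis1 shared 896 bases (8.51%) with the antisense gene Gm16140 and 1029 bases (9.77%) with Gm37818 on its own strand. The overlap with Gm37818 would remain with counting by strand. How many reads of these 3 factors fell in the shared bases was not measured, so their levels are uncertain by an unknown amount.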

How the data were processed

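Poly(A)-selected RNA of E13.5 kidneys was sequenced after TruSeq library preparation from 500 ng of input RNA, as the labels' protocols state. TopHat2 2.0.12, HTSeq and DESeq2 1.4.5 and the build mm10 (GRCm38) were used, per the submitters' processing notes. The gene annotation is not stated in the sources, and strand use appears only as the unexplained abbreviation Unstr in the table's name. The authors deposited 1 table whose per-library signal values are read counts divided by a size factor, and 100% of values were whole multiples of 1 read (within 0.01 read). The deposited ratio of group means (fold change), its log2 and the authors' p-values, raw and adjusted, were not used for any call.

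After a pseudocount of 1 and log2 transformation, the 13692 genes whose mean reached 10 were tested with limma 3.58.1 (intensity trend, genotype only, two-sided) in R 4.3.3. Recovered reads were also tested with DESeq2 1.42.0 and with edgeR 4.0.16, by quasi-likelihood with TMM factors. The steps were tested on simulated data. The members and gene lists were chosen with earlier results of these data known. Genes named beside the 8 and Smo are, per list, up to 4 with the smallest p and, per factor, the 2 most alike genes. Some genes that this rule names are not reported here. Figures used matplotlib 3.10.9. Positions and exons came from GENCODE vM21 and promoters from RefSeq GRCm38.p6, where all 8 members matched by symbol. The alternatives covered pseudocount, filter, scaling, test, block, muscle covariate and left-out libraries.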

Additional observations from a re-analysis of the deposited data

How the results depend on the processing

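Foxd1 and Hic1 passed under pseudocounts of 0.5 and 8, no filter or a mean of at least 50, TMM scaling, edgeR, DESeq2, the muscle covariate and the replicate block, and lost their calls without both libraries numbered 2 (-1.29, adjusted p = 0.124, and -0.50, adjusted p = 0.0673, by limma). In that setting 2 genes, 0 members, 0 of the other mesenchymal and stromal transcription factors and 0 cortical stroma genes were called, and Foxd1 relative to the other 7 differed by -1.17 (exact permutation p = 0.1, the smallest possible). Without controls 1 and 2, 29 genes were called. Foxd1 (-1.67, adjusted p = 0.0067 by limma) and Hic1 (-0.55, adjusted p = 0.0194 by limma) still passed. With these controls left out, the log2 fold change of Meis2 was -0.0482 and that of Ebf1 0.0805. That of Nr2f1 was -0.60 (adjusted p = 0.0550 by limma) and that of Nr2f2 -0.14 (adjusted p = 0.431 by limma). The balance of Foxd1 was then -1.4996 (exact permutation p = 0.0667, the smallest possible). The cause of these differences beyond fewer samples was not tested.

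DESeq2 called 214 genes, against 78 by limma, with 1 paralogue, 2 partners, 4 cortical and 1 medullary stroma genes. With the muscle covariate the log2 fold change of Ebf1 was 0.0032, and 1 partner and 2 cortical stroma genes were called. The sample number as a replicate block gave 232 calls, with Nr2f1 at -0.36 (adjusted p = 0.0134 by limma), 2 paralogues, 2 partners, 3 other mesenchymal and stromal transcription factors, 5 cortical and 1 medullary stroma genes. The balance of Foxd1 was -1.15 (exact permutation p = 0.125 in the replicate block, the smallest possible). Deviations of same-numbered libraries correlated at 0.325, 0.287, 0.294 and 0.0635 for numbers 1 to 4, and a pairing was taken only where every number passed 0.1. Libraries 1 to 3 correlated best with their own number, a hint from the data and not from the design, while control 4 correlated more with mutant 3 (0.154) than with mutant 4.

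With 1 library left out in turn, 18 to 183 genes and 1 to 2 members were called. Ranges of the log2 fold change were -1.44 to -1.11 for Foxd1, -0.54 to -0.45 for Hic1, -0.0317 to 0.0672 for Tcf21, -0.14 to 0.0181 for Meis1, -0.0183 to 0.0695 for Meis2 -0.0773 to 0.0149 for Ebf1, -0.45 to -0.26 for Nr2f1 and -0.10 to -0.0190 for Nr2f2. Counts called were 0 to 2 for other mesenchymal and stromal transcription factors, 0 to 2 for cortical, 0 to 1 for medullary and 0 to 2 for general stroma genes.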

Other observations

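The genes most like the other 5 factors in their library deviations were, with Pearson r over 8 libraries given as a description, Pask (0.993) and Trim24 (0.970) for Meis1 and Hmgxb3 (0.989) and Arid3a (0.980) for Meis2. For Nr2f2 they were Zfp408 (0.979) and Asxl3 (0.973), for Tcf21 Ndufc1 (0.982) and Zfp51 (0.962), and for Ebf1 Rit1 (0.976) and Serpinf1 (0.973). None of these 10 genes was called between genotypes by limma. The promoter windows of the 8 factors ranged in GC content from 39.6% at a downstream Nr2f1 start to 77.2% at the downstream Hic1 start, against a median of 52.4% over all 32851 windows.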
